A study of Homo sapiens with 10 samples.

Results

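Transcript levels of 42 genes of the integrated stress response and the unfolded protein response were followed in human embryonic stem cells given either of a pair of activators of Wnt signalling. The genes were taken by symbol, with no threshold on a measured value, out of 35940 symbols in the count table. Rows that share a symbol were added, which joined 4 rows for ATF6B. Of the 42 genes, 41 had enough counts to be tested, among 15251 genes tested in all. NUPR1, a small stress-induced chromatin protein, was not tested, with 0 to 6 estimated counts per library.

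In the integrated stress response, kinases that sense amino acid shortage, double-stranded RNA, haem shortage or endoplasmic reticulum (ER) stress phosphorylate the translation factor eIF2alpha. General translation then slows, while the mRNA of the transcription factor ATF4 is translated more, and ATF4 switches on genes of amino acid synthesis and uptake, tRNA charging and feedback control. The unfolded protein response starts in the ER from the sensors PERK (1 of the eIF2alpha kinases), IRE1, which splices the mRNA of XBP1, and ATF6, and it raises chaperones such as HSPA5. Because ATF4 and XBP1 are controlled largely at translation and splicing, the level of their mRNA alone does not show their activity.

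The cells were ESI017, an established human embryonic stem cell line, described as wild type. All 5 groups were kept in mTeSR1, a defined medium for undifferentiated stem cells, and each group had 2 libraries of mRNA selected by its poly(A) tail. The control group had mTeSR1 alone, 2 groups had mTeSR1 with WNT3A, a Wnt ligand, at 300 ng/ml for 6 h or 18 h, and 2 groups had mTeSR1 with CHIR99021, a small-molecule inhibitor of the kinase GSK3, at 8 µM for 6 h or 18 h. The labels give no culture time for the mTeSR1 group and name no solvent control for CHIR99021. The labels assign libraries to biological repeat 1 or 2. Of the 5 groups, 4 have 1 library from each repeat, but both CHIR99021 libraries at 18 h, called (a) and (b) here, belong to repeat 2. The labels do not say whether (a) and (b) come from separate cultures, so the spread between these 2 libraries may be technical. The p-values rest on a spread estimated over all 10 libraries in 1 fit, to which (a) and (b) contribute.

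Library totals ran from 16648336 to 26732910 estimated counts, so that 3 counts, the limit that a count of 0 allows, stand for 0.112 to 0.180 counts-per-million (CPM). Levels below are CPM after TMM scaling, which are not corrected for transcript length and are therefore compared between libraries and not between genes. In mTeSR1 of repeat 2 and in WNT3A 6 h of repeat 2, the deviation of a gene from its mean rose with transcript length (Spearman's rho 0.349 and 0.448 over 15142 genes), against -0.293 to -0.0130 in the other 8 libraries. Both of these libraries belong to repeat 2. CHIR99021 6 h of repeat 2 was at -0.251, opposite in sign to WNT3A 6 h of the same repeat. Some values with the length trend removed or without a library are given below. Mitochondrially encoded transcripts took 2.70% to 6.73% of the counts. The 8 pluripotent stem cell markers summed to 9517 to 9559 CPM in mTeSR1 and 7134 to 8885 CPM in the treated groups, with none of the 8 at 0. Primitive streak markers summed to 2.93 to 9.53 CPM in mTeSR1, where TBXT, GSC and MESP1 were at 0. They summed to 138 to 166 CPM after 6 h and 302 to 450 CPM after 18 h of WNT3A, and to 38.4 to 85.2 CPM after 6 h and 146 to 349 CPM after 18 h of CHIR99021. The part of this shift in cell state in the results below was not tested, and in bulk RNA fewer cells of a type and less RNA per cell cannot be told apart.

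The promoters of these genes were searched for the elements through which both responses are known to act. RefSeq (GRCh38.p14) gave 55 windows of 250 bases before a transcript start for 36 of the 42 genes, among 35116 such windows. The C/EBP-ATF core TGATGNAA, the kind of element bound by ATF4 with a C/EBP partner, was found on either strand in 7 of the 55 windows (12.7%), against 3.14% of all windows. The ER stress element ERSE (CCAAT, then N 9 times, then CCACG), read by ATF6, was found in 4 of the 55 (7.27%, in CALR, HSP90B1, HSPA5 and XBP1), against 0.074% of all windows. The shorter ERSE-II (ATTGG, then N, then CCACG) was found in 2 of the 55 (3.64%), against 0.0513%. The core with its full form, TGATGCAAT (0.216% of all windows), the ATF6 and XBP1 element TGACGTGG (0.612%) and the TCF/LEF motif CTTTGAT through which Wnt signalling acts on its targets (2.26%) had no match in the 55 windows. A match is a description of the letters and not a measured binding site. The 7 cores are shown with 8 bases on each side, 5′ to 3′ on the strand of the gene, with the match in capitals (reversed where the core lies on the opposite strand). Positions are counted back from the transcript start, whose preceding base is -1.
ASNS (chr7:97872461-97872484, minus strand, match at -68 to -61): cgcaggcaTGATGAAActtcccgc
CHAC1 (chr15:40953254-40953277, plus strand, match at -209 to -202, opposite strand): ccctgccgTTGCATCActcctgcc
CEBPG (chr19:33374063-33374086, plus strand, match at -42 to -35): gcggcgtcTGATGCAAcctgccgg
AARS (chr16:70289678-70289701, minus strand, match at -187 to -180, opposite strand): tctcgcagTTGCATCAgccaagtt
ATF3 (chr1:212565208-212565231, plus strand, match at -191 to -184): ggtcaggaTGATGGAAggctgtca
SLC1A5 (chr19:46784896-46784919, minus strand, match at -97 to -90): gaagtggcTGATGCAAgctgtcca
HERPUD1 (chr16:56931958-56931981, plus strand, match at -176 to -169, opposite strand): gcggcgggTTGCATCAgcccgtgc
The ERSE-II matches, in capitals, were in a pair of ER stress genes, so that HERPUD1 carries both kinds of element.
HERPUD1 (chr16:56932017-56932043, plus strand, match at -117 to -107): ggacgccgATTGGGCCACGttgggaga
SDF2L1 (chr22:21642106-21642132, plus strand, match at -188 to -178, opposite strand): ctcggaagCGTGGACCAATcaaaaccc
Whole windows are printed for the reference chaperone of the unfolded protein response, HSPA5, with its ERSE in capitals at -66 to -48, and for SLC7A5, the gene whose change after 18 h of WNT3A passed in each alternative setting, which had no match to any motif searched.
HSPA5 (chr9:125241344-125241593, minus strand): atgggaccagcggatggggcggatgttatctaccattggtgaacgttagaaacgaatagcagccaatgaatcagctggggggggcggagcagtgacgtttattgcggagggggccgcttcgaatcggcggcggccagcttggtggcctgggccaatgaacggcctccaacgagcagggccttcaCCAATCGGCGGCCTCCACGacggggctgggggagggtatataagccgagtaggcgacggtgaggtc
SLC7A5 (chr16:87869508-87869757, minus strand): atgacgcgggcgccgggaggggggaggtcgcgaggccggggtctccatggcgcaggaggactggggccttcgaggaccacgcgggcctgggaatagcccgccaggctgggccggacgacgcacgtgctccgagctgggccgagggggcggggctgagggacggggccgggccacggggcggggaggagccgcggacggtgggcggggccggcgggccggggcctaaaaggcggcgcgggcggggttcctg

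Against untreated cells, the clearest responses were in the heavy and light chain of 1 amino acid transporter and in a lipoprotein receptor. SLC7A5 rose 3.15-fold after 18 h of WNT3A and 2.29-fold after 18 h of CHIR99021. Its partner SLC3A2 rose 2.21-fold and the receptor gene VLDLR fell 2.32-fold after 18 h of CHIR99021. The CHIR99021 values are from a fit with the biological repeat as a block, and the WNT3A value is from a fit without it. With the block, SLC3A2 was also called after 18 h of WNT3A, and SLC7A5 and VLDLR after 6 h of WNT3A. Without the block, neither SLC3A2 nor VLDLR was called after 18 h of CHIR99021. None of the stress-response transcription factors, the amino acid synthesis enzymes or the ER chaperones passed the test in any comparison. Between CHIR99021 and WNT3A, no member passed the test at either time.

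SLC7A5 (ENSG00000103257, GRCh38 chromosome 16, 87830023 to 87869488) encodes LAT1, the light chain that carries leucine and other large neutral amino acids. Its level was 874 and 940 CPM in mTeSR1 of repeats 1 and 2, 1651 and 1554 CPM after 6 h of WNT3A, and 2863 and 2856 CPM after 18 h of WNT3A. With CHIR99021 it was 1186 and 1028 CPM at 6 h and 1789 and 2301 CPM in libraries (a) and (b) at 18 h. Every treated library was above both mTeSR1 libraries, both WNT3A libraries at each time were above both CHIR99021 libraries at that time, and the groups did not overlap. The mean was 907 ± 46.8 CPM in mTeSR1 (SD, n = 2), 2859 ± 4.60 CPM after 18 h of WNT3A and 2045 ± 362 CPM after 18 h of CHIR99021. The log2 change after 18 h of WNT3A was 1.66 (SE 0.17, edgeR quasi-likelihood test, adjusted p = 0.0048), and it passed in each of the 12 alternative settings. SLC7A5 was the only member of 41 called there (2.44%), where 2.1% of all genes tested were called. With CHIR99021 for 18 h the log2 change was 1.20 (SE 0.16, adjusted p = 0.011). That call was lost without mTeSR1 of repeat 1 (adjusted p = 0.078), without mTeSR1 of repeat 2 (0.16) and without CHIR99021 library (b) (0.066). After 6 h the log2 change was 0.82 with WNT3A (SE 0.17, adjusted p = 0.10, or 0.048 with the repeat as a block) and 0.29 with CHIR99021 (adjusted p = 0.95).

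SLC3A2 (ENSG00000168003, chromosome 11, 62856102 to 62888875) encodes the heavy chain 4F2hc, which holds LAT1 and several other light chains at the cell surface. It stood at 394 and 223 CPM in mTeSR1, 470 and 259 CPM after 6 h of WNT3A, 761 and 686 CPM after 18 h of WNT3A, 448 and 334 CPM after 6 h of CHIR99021, and 464 and 620 CPM in CHIR99021 (a) and (b) at 18 h. At 18 h both treated groups lay above both mTeSR1 libraries, while at 6 h each treated group overlapped them. The log2 change after 18 h of CHIR99021 was 1.15 (SE 0.22, edgeR adjusted p = 0.037, with the repeat as a block). It was lost in 5 of the 12 alternatives: without the block (adjusted p = 0.32), with rows kept per identifier (0.053), without mTeSR1 of repeat 1 (0.095) or repeat 2 (0.51), and without library (b) (0.25). After 18 h of WNT3A the log2 value was 1.23 (SE 0.34, adjusted p = 0.13), and with the repeat as a block it was 1.29 (adjusted p = 0.011).

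VLDLR (ENSG00000147852, chromosome 9, 2621834 to 2660053) encodes the very low density lipoprotein receptor, a known ATF4 target. It was at 28.4 and 49.6 CPM in mTeSR1, 10.8 and 15.04 CPM after 6 h of WNT3A, 19.4 and 37.1 CPM after 18 h of WNT3A, 15.3 and 18.8 CPM after 6 h of CHIR99021, and 24.4 and 16.1 CPM in CHIR99021 (a) and (b) at 18 h. Only the WNT3A 18 h group overlapped mTeSR1, and within each repeat every treated library was below its own mTeSR1 library. The log2 change after 18 h of CHIR99021 was -1.21 (SE 0.24, edgeR adjusted p = 0.037). That call was lost in 6 of the 12 alternatives: without the block (0.30), per identifier (0.054), with only the groups compared (0.051), without mTeSR1 of repeat 1 (0.095) or repeat 2 (0.50), and without library (b) (0.23). After 6 h of WNT3A the log2 value was -1.59 (SE 0.38, adjusted p = 0.20), and with the repeat as a block it was -1.56 (SE 0.23, adjusted p = 0.017).

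In counts, no member passed the edgeR test after 6 h of WNT3A, where 0.433% of all genes were called. At an unadjusted p under 0.05, SLC7A5 was higher there (1 of 41, against 3.88% of all genes) and DDIT4 and VLDLR were lower (2 of 41, against 2.28%). DESeq2 called 2 members there, but it also called more genes in all than edgeR, as given in the last section. With the repeat as a block, 2 members passed the edgeR test, SLC7A5 higher and VLDLR lower, against 1.1% of all genes. At 18 h of WNT3A the block raised the count from 1 to 2 members (SLC7A5 and SLC3A2), against 4.92% of all genes. After 6 h of CHIR99021 no member passed, where 0.0197% of all genes were called (0.138% with the block, still with no member). There SLC7A11, the cystine transporter, was higher at an unadjusted p under 0.05 (1 of 41, against 2.3%) and VLDLR lower (1 of 41, against 2.44%), and DESeq2 called no member. After 18 h of CHIR99021, 3 of 41 (7.32%) passed, against 2.78% of all genes, and without the block 1 did (SLC7A5), against 1.19%. These 4 comparisons share the mTeSR1 libraries, so their members' values are not independent of each other.

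**Figure D1:**
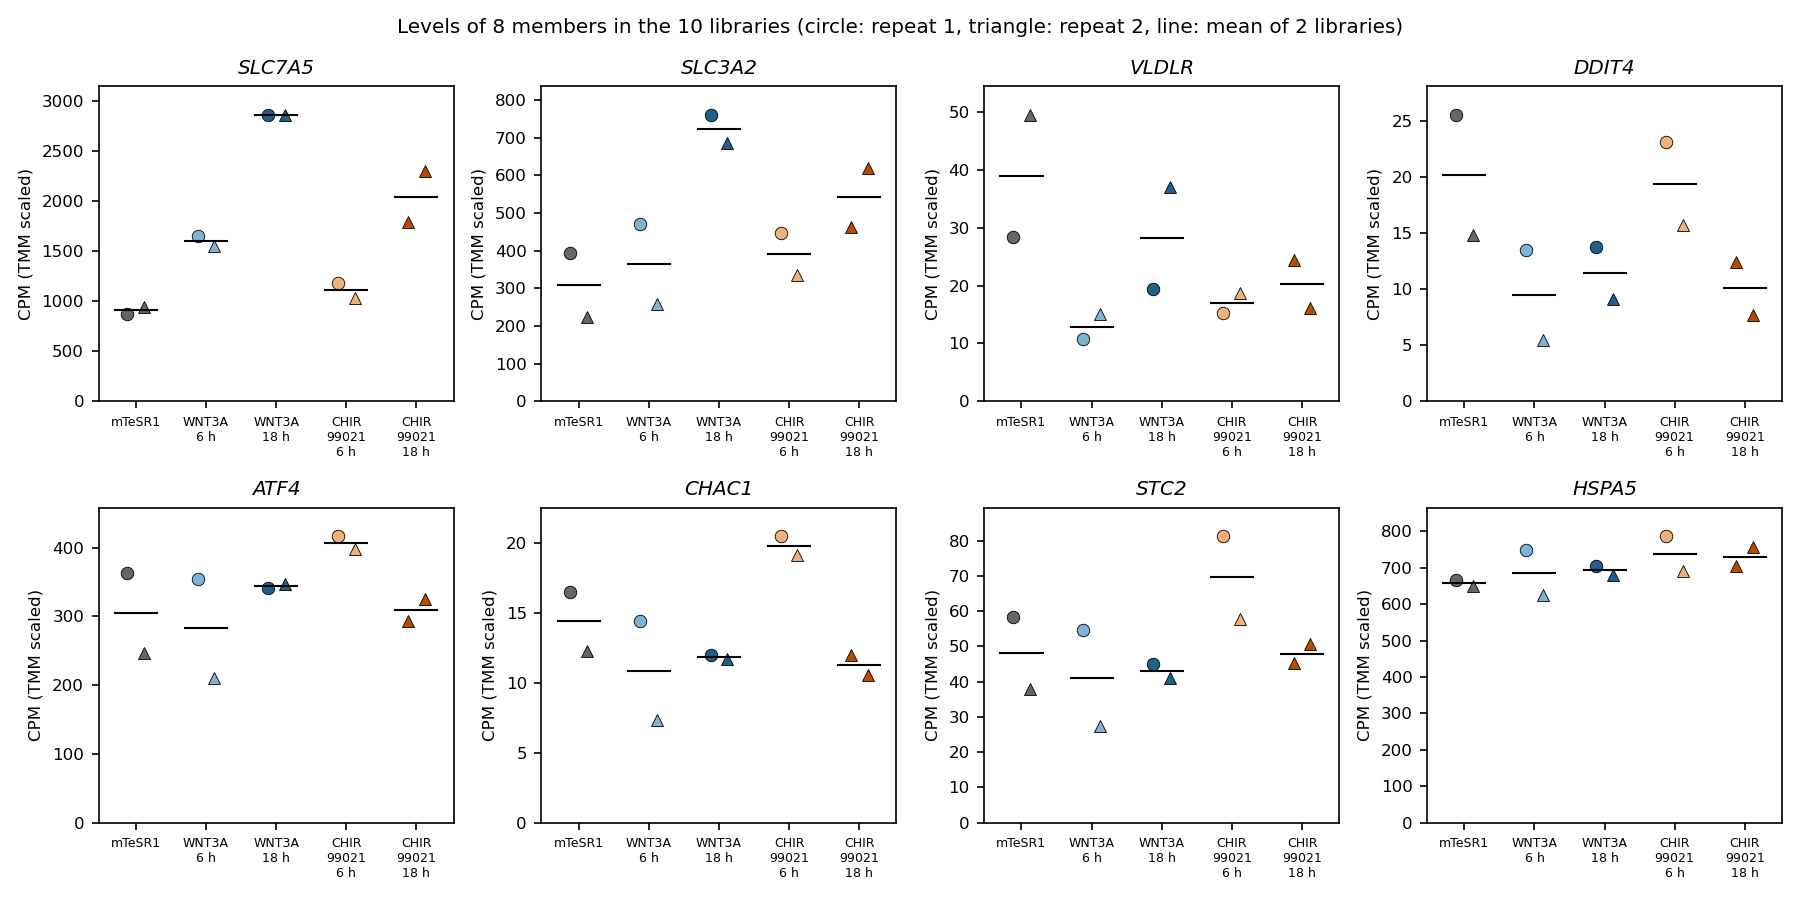
Levels of 8 members in all 10 libraries, with CPM after TMM scaling on the y axis (starting at 0), circles for repeat 1, triangles for repeat 2 and a line at the mean of 2 libraries. SLC7A5 is above both mTeSR1 libraries (874 and 940 CPM) in every treated library, and CHAC1 is highest in the 2 CHIR99021 libraries at 6 h (20.5 and 19.1 CPM).

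CHIR99021, which acts inside the cell on GSK3, was then set beside WNT3A, which acts at the cell surface. At 6 h, none of the 41 members passed, and 0.00656% of all genes did (1 gene). With the repeat as a block the background was 0.0197%, again with no member. DESeq2 called 30 genes and no member. At an unadjusted p under 0.05, 5 members were higher with CHIR99021 (12.2%, against 2.35% of all genes) and 1, SLC7A5, was lower (against 4.18%). The 5 were CEBPB, CHAC1, STC2, CTH and HERPUD1, with adjusted p-values from 0.69 upward. With the repeat as a block, 9 were higher (22%, against 5.17%), the others being ATF4, DDIT3, DDIT4 and SHMT2, and SLC7A5 was again lower (against 6.87%). Values below are from the fit without the block unless the block is named. Fitted log2 values were above 0 for 34 of 41 members, with a median of 0.18 against -0.00871 over all genes. Over all genes, 48.7% were higher with CHIR99021 in repeat 1 and 50.1% in repeat 2. All members are read from the same libraries, so their signs, here and by role below, are not independent of each other. The 2 CHIR99021 libraries lay above both WNT3A libraries for 14 of 41 members (34.1%, against 16.5% of all genes) and below both for SLC7A5 alone (against 18%). Within both repeats separately, 26 of 41 (63.4%) were higher with CHIR99021 than with WNT3A, against 27.5% of all genes, and 2 (XBP1 and SLC7A5) were lower in both, against 28.4%. With each library's trend with transcript length removed, 23 of 41 (56.1%) were higher in both repeats, against 27.8%. ATF4, DDIT3, CEBPB, DDIT4 and CHAC1 stayed among them. ATF5, EIF4EBP1, ASNS, PSAT1, HSP90B1 and SDF2L1 dropped out, and ATF6B, SLC7A11 and SLC7A1 came in.

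The 9 transcription factors had a median log2 value of 0.20 at 6 h, with 7 above 0. ATF4 (ENSG00000128272, chromosome 22, 39519695 to 39522685), the central factor of the integrated stress response, was at 417 and 398 CPM with CHIR99021 and at 355 and 211 CPM with WNT3A in repeats 1 and 2. Both CHIR99021 libraries were above both WNT3A libraries, and above mTeSR1 at 363 and 246 CPM. The log2 value was 0.53 (95% interval -0.05 to 1.11, edgeR adjusted p = 0.69), and it was 0.23 within repeat 1 and 0.92 within repeat 2. With the repeat as a block it was 0.57 (interval 0.12 to 1.01, adjusted p = 0.41).

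CEBPB (ENSG00000172216, chromosome 20, 50190734 to 50192689), a C/EBP partner of the ATF factors, was at 20.2 and 27.5 CPM with CHIR99021 and at 17.3 and 8.72 CPM with WNT3A. The 2 groups did not overlap, and most of the distance came from repeat 2. The log2 value was 0.88 (SE 0.35, interval 0.08 to 1.67), with 0.22 within repeat 1 and 1.60 within repeat 2. It was 0.46 without the WNT3A 6 h library of repeat 2 and 1.45 without that of repeat 1. DDIT3, the pro-death factor CHOP, was near the detection limit at 1.46 and 1.40 CPM with CHIR99021 and 0.991 and 0.393 CPM with WNT3A. Its log2 value was 1.06, with an unadjusted edgeR p of 0.13, and with the block it was 1.17 (unadjusted p = 0.049, adjusted p = 0.41). ATF6, an ER stress sensor, differed in sign between the repeats, with a log2 ratio of 0.10 in repeat 1 and -0.57 in repeat 2. Its fitted value was -0.31.

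All 7 tested regulators had a log2 value above 0 at 6 h, with a median of 0.40. CHAC1 (ENSG00000128965, chromosome 15, 40952962 to 40956519) encodes a glutathione-degrading enzyme that is a sensitive ATF4 target, and it carries 1 of the cores printed above. It was at 20.5 and 19.1 CPM with CHIR99021, 14.4 and 7.35 CPM with WNT3A and 16.5 and 12.2 CPM in mTeSR1. Both CHIR99021 libraries were above all 8 others. The log2 value between the treatments was 0.87 (SE 0.30, interval 0.19 to 1.55, adjusted p = 0.69), 0.50 within repeat 1 and 1.33 within repeat 2. It was 0.46 without the WNT3A 6 h library of repeat 2 and 1.43 without that of repeat 1, and it passed in none of the 12 alternatives.

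STC2 (ENSG00000113739, chromosome 5, 173314713 to 173329503), a secreted glycoprotein induced by ER stress, was at 81.3 and 57.9 CPM with CHIR99021, 54.6 and 27.3 CPM with WNT3A and 58.4 and 38.0 CPM in mTeSR1. The CHIR99021 pair was above the WNT3A pair but overlapped mTeSR1. The log2 value was 0.76 (SE 0.33, interval 0.02 to 1.51), and it was above 0 in both repeats (0.57 and 1.07). It was 0.35 without the WNT3A 6 h library of repeat 2, 1.35 without that of repeat 1 and 0.50 without the CHIR99021 6 h library of repeat 1. DDIT4 (ENSG00000168209, chromosome 10, 72273920 to 72276036), the mTORC1 inhibitor REDD1, was at 23.1 and 15.7 CPM with CHIR99021, 13.5 and 5.5 CPM with WNT3A and 25.6 and 14.8 CPM in mTeSR1. Both WNT3A libraries were below both mTeSR1 libraries, whereas the CHIR99021 libraries lay within the mTeSR1 range. The log2 value between the treatments was 1.03 (interval -0.03 to 2.09), with 0.75 and 1.43 in repeats 1 and 2, and with the block it was 1.12 (interval 0.53 to 1.70, adjusted p = 0.40). Against mTeSR1, DDIT4 was at -1.09 on the log2 scale after 6 h of WNT3A (adjusted p = 0.79) and at -0.06 after 6 h of CHIR99021.

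The 10 enzymes of amino acid synthesis, folate and sulfur metabolism all had log2 values above 0 at 6 h, within the narrow range of 0.12 to 0.45, with a median of 0.17. CTH (ENSG00000116761, chromosome 1, 70411218 to 70439851), which makes cysteine from cystathionine, was at 14.8 and 16.02 CPM with CHIR99021 and at 11.4 and 11.2 CPM with WNT3A. The groups did not overlap, and the log2 value was 0.45 (SE 0.17, interval 0.05 to 0.85), close to equal within the repeats (0.36 and 0.50). Most of the other enzymes differed more between repeats than between treatments. ASNS, asparagine synthetase, was at 135 and 76.5 CPM with CHIR99021, 125 and 67.8 CPM with WNT3A and 121 and 66.3 CPM in mTeSR1. PHGDH, the entry enzyme of serine synthesis, was at 514 and 390 CPM with CHIR99021 and 502 and 284 CPM with WNT3A.

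The 6 transporters had a median log2 value of -0.01, with 3 above 0. SLC7A5 was lower with CHIR99021 by both repeats (log2 ratios of -0.48 and -0.60), with a fitted value of -0.53 (SE 0.17, interval -0.91 to -0.16, edgeR adjusted p = 0.69). Over the 12 alternatives that value lay between -0.64 and -0.43. SLC7A1 was fitted at -0.15. Both tRNA genes, AARS (alanyl-tRNA synthetase) and XPOT (the tRNA export factor), had values below 0, at -0.19 and -0.18. Neither sign held throughout, since AARS was at 0.082 without the CHIR99021 6 h library of repeat 2 and XPOT at 0.0047 without the WNT3A 6 h library of repeat 2.

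The 7 ER chaperones and unfolded protein response targets all had log2 values above 0 at 6 h, with a median of 0.19. HERPUD1 (ENSG00000051108, chromosome 16, 56932048 to 56944863), an ER membrane protein of ER-associated degradation, was at 17.1 and 19.0 CPM with CHIR99021 and at 12.5 and 11.9 CPM with WNT3A. The groups did not overlap, but CHIR99021 did overlap mTeSR1 at 18.7 and 12.7 CPM. The log2 value was 0.57 (SE 0.25, interval 0.0022 to 1.13), with 0.44 and 0.65 within the repeats. HSPA5 (BiP, the main ER chaperone) was at 787 and 691 CPM with CHIR99021, 748 and 625 CPM with WNT3A and 665 and 649 CPM in mTeSR1, and the groups overlapped.

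**Figure D2:**
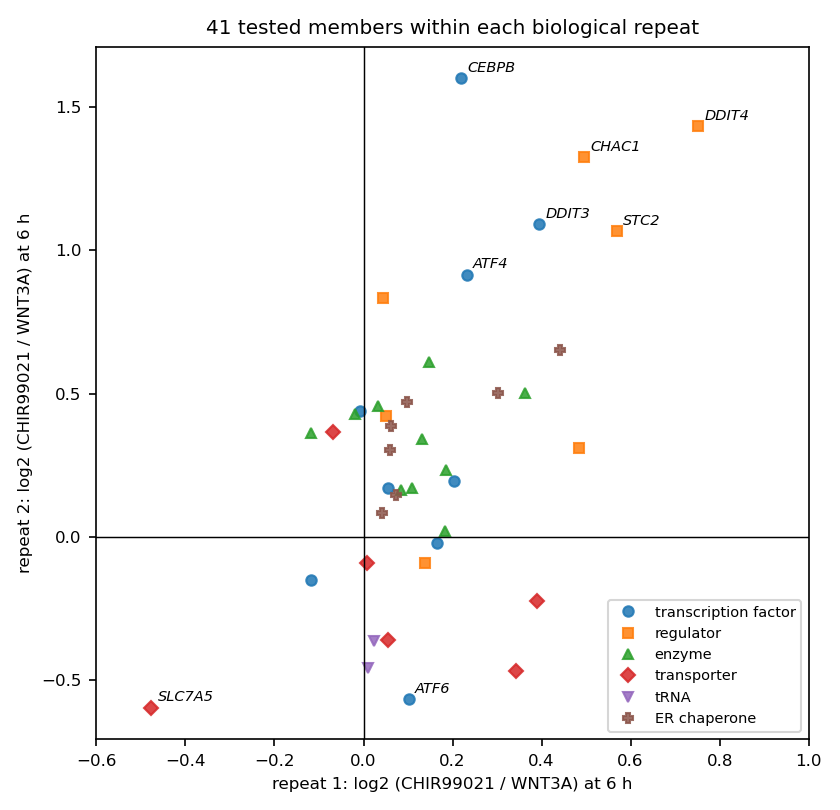
Log2 ratio of CHIR99021 to WNT3A at 6 h (CPM + 0.5) within repeat 1 (x axis) and within repeat 2 (y axis), with 1 symbol for each of the 41 tested members, shaped by role. In the upper right are 26 members, and the lower left holds XBP1 and SLC7A5 only.

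**Figure D3:**
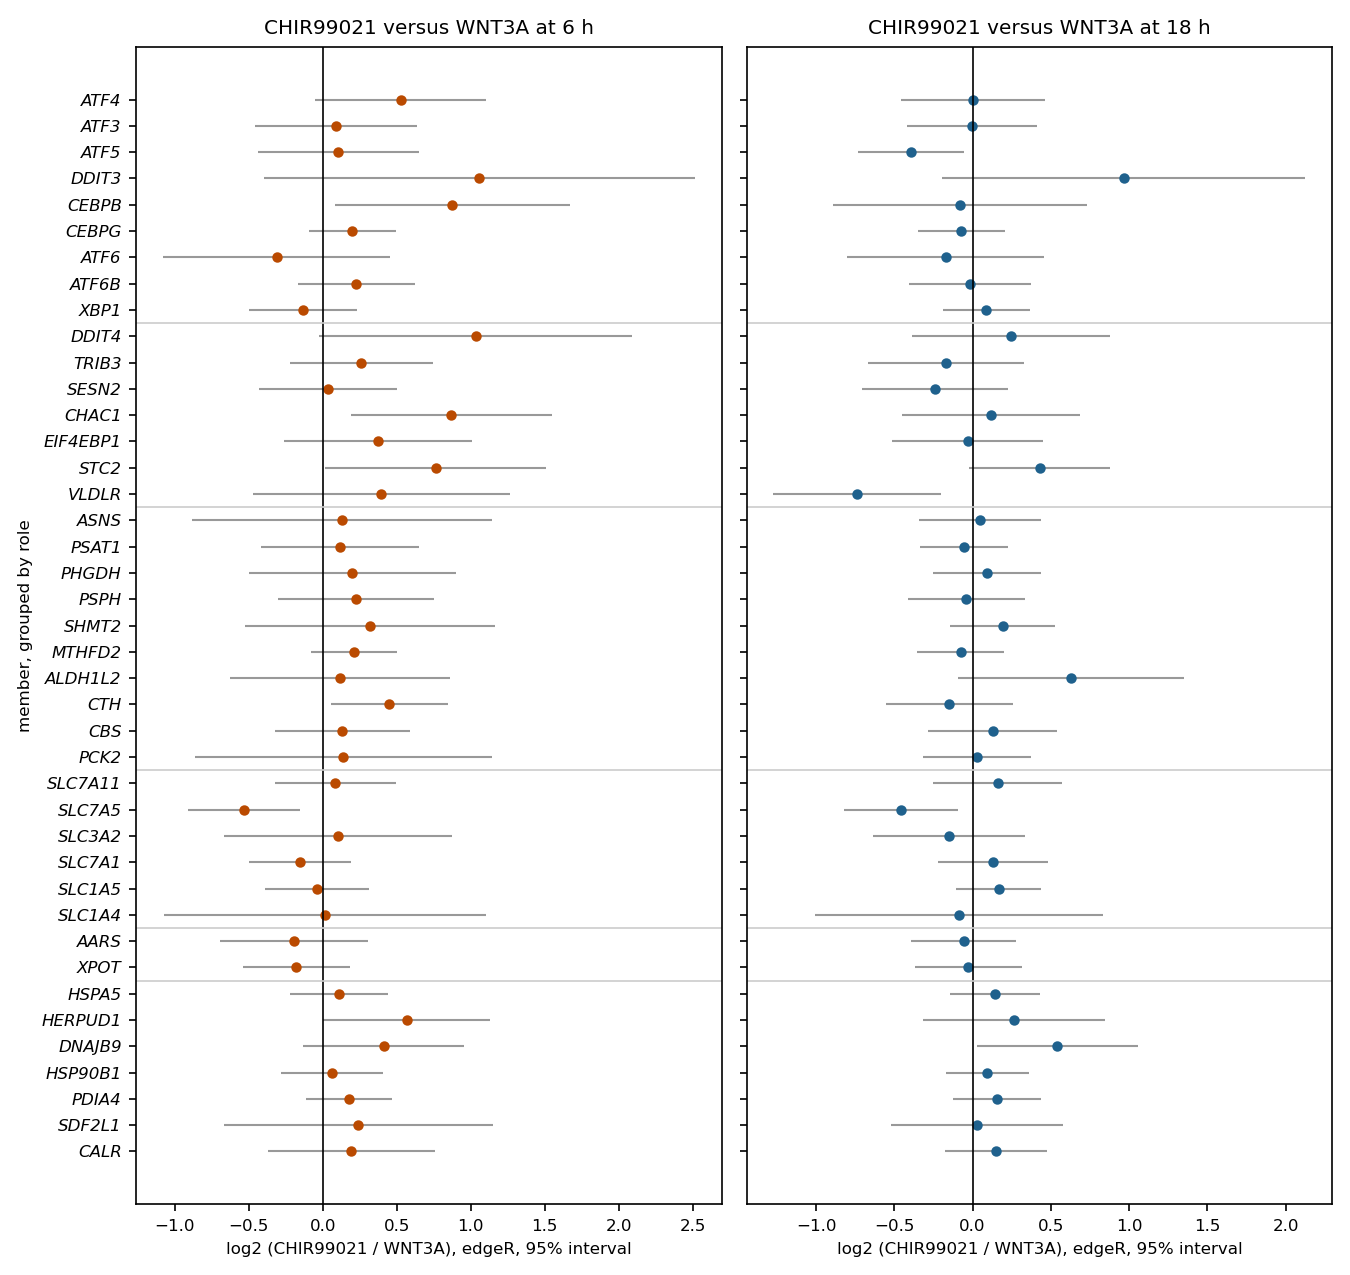
Fitted log2 ratio of CHIR99021 to WNT3A with its 95% interval for each of the 41 tested members, at 6 h (left) and 18 h (right), ordered by role. At 6 h, 34 points are above 0, and at 18 h, 22 are, while no member passed after adjustment over 15251 genes at either time.

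At 18 h, no member and no other gene passed between CHIR99021 and WNT3A (0% of all genes tested by edgeR, and 9 genes but no member by DESeq2). The fit held the repeat as a block, since both CHIR99021 libraries come from repeat 2. The difference between repeats in the other 4 groups therefore enters each fitted value, which can differ in sign from the ratios to the WNT3A library of repeat 2 (ATF4 at -0.24 and -0.09 for (a) and (b), but fitted at 0.0049). At an unadjusted p under 0.05, DNAJB9 was higher (1 of 41, against 1.8% of all genes), and ATF5, VLDLR and SLC7A5 were lower (3 of 41, against 2.32%). Without the block no member was higher (against 1.46%), and only ATF5 and SLC7A5 were lower (2 of 41, against 1.52%). With the block, the median log2 value over the members was 0.03, against 0.00214 over all genes, with 22 of 41 above 0. Without the block it was -0.11, with 15 above 0. The CHIR99021 libraries lay above both WNT3A libraries for 7 of 41 members (17.1%, against 18.6% of all genes) and below both for 11 (26.8%, against 20.6%).

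DNAJB9 (ENSG00000128590, chromosome 7, 108569568 to 108574850), an ER co-chaperone of HSPA5 that is a target of IRE1 and XBP1, was at 11.3 and 13.3 CPM in CHIR99021 (a) and (b) and at 8.29 and 9.79 CPM with WNT3A. Both CHIR99021 libraries were above all 4 libraries of WNT3A 18 h and mTeSR1 (8.58 and 6.92 CPM). The log2 value was 0.54 (SE 0.23, edgeR adjusted p = 1). All 7 ER chaperones had values above 0 at this time too in the fit with the block, with a median of 0.15. Mean CPM went the other way for SDF2L1 (22.2 with CHIR99021 against 27.4 with WNT3A) and CALR (817 against 852). It was higher with CHIR99021 for the other chaperones. In the same fit, DDIT3, STC2, ALDH1L2 and SLC1A5 were also among the 5 higher members with the lowest unadjusted p. Their log2 values were 0.97 for DDIT3 (near the detection limit), 0.43 for STC2, 0.63 for ALDH1L2 and 0.17 for SLC1A5, and none passed. For ALDH1L2 and SLC1A5 the groups overlapped.

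Lower with CHIR99021 at 18 h were SLC7A5, at -0.46 (SE 0.16, interval -0.82 to -0.10), and VLDLR, at -0.74 (SE 0.24, interval -1.27 to -0.20), with adjusted p = 1 for each. ATF5, an ATF4-related factor of mitochondrial stress, was at 30.4 and 26.5 CPM in CHIR99021 (a) and (b) and at 45.7 and 40.2 CPM with WNT3A. The groups did not overlap, and the log2 value was -0.40 (SE 0.15, interval -0.73 to -0.06). SESN2 was at -0.24 and CTH at -0.15. ATF4, CHAC1 and CEBPB, which were higher with CHIR99021 in both repeats at 6 h, were not above WNT3A in both pairs at 18 h. ATF4 was at 293 and 325 CPM with CHIR99021 against 341 and 347 CPM with WNT3A, for the fitted log2 value given above. CHAC1 was at 12.0 and 10.6 CPM against 12.0 and 11.7 CPM (log2 value 0.12), and CEBPB at 23.6 and 22.1 CPM against 18.1 and 30.3 CPM (-0.08).

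The change of the difference between the treatments from 6 h to 18 h was itself tested, and no member and no other gene passed (0% by edgeR, and 12 genes but no member by DESeq2). At an unadjusted p under 0.05, 5 of 41 members (12.2%) had a lower value at 18 h than at 6 h, against 1.48% of all genes. They were ATF5, DDIT4, CHAC1, VLDLR and CTH, in the fit with the block. Without the block, CTH alone did (1 of 41, 2.44%), against 1.02% of all genes. The fitted values that follow are from the fit with the block. For VLDLR the change was -1.15 (interval -1.90 to -0.40, adjusted p = 0.93), for CHAC1 -0.80 and for CTH -0.60. The median change over the members was -0.18, against 0.00553 over all genes. Of the 41 members, 10 (24.4%) were higher with CHIR99021 in both pairs of libraries at 6 h and lower in both at 18 h, against 10.3% of all genes. ATF4, CEBPB, CEBPG, PSAT1, PSPH and MTHFD2 were among them. None went the opposite way, against 9.12% of all genes. Another 9 (22%, against 8.28%) were higher at both times, among them DDIT3, STC2, DNAJB9, HSPA5, HSP90B1, PDIA4 and CALR. Both pairs at 18 h share the WNT3A library of repeat 2.

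The members were also set beside mTeSR1 at 6 h by their direction in each repeat. After WNT3A, 20 of 41 (48.8%) were lower in both repeats, against 30.6% of all genes. After CHIR99021, 23 (56.1%) were higher in both, against 28%, and VLDLR alone was lower in both, against 26%. With the length trend removed, 5 (DDIT4, EIF4EBP1, VLDLR, CBS and SDF2L1; 12.2%) were lower in both, against 27.9%. None of the 7 regulators had a fitted value above 0 after 6 h of WNT3A (median -0.38), while all 6 transporters did (median 0.19). Over all genes, 49.5% were higher than in mTeSR1 in repeat 1 and 51.5% in repeat 2. Neither the regulators nor the transporters had a call in the edgeR fit without the block. Among the alternatives, SLC7A5 passed with the block, with no filter on low counts and with DESeq2, and VLDLR passed with the block and with DESeq2.

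The 7 ER chaperones had log2 values of 0.15 to 0.78 after 18 h of CHIR99021 against mTeSR1, all above 0, with a median of 0.27 and no call. These values are from the fit with the block. Mean CPM was lower than in mTeSR1 for SDF2L1 (22.2 against 24.0) and CALR (817 against 859), and higher for the other chaperones. With the length trend removed, CALR was lower in both pairs of libraries and SDF2L1 was not higher in both, while the other chaperones were. Over the 41 members, the median log2 value was 0.11 with the block and -0.07 without it, with 25 and 16 members above 0. DNAJB9 was at 0.78 (adjusted p = 0.12), HSPA5 at 0.22 and HSP90B1, the ER form of HSP90, at 0.20. DDIT3 was at 1.79 and 2.31 CPM in CHIR99021 (a) and (b), and at 1.47 and 0.397 CPM in mTeSR1. Both were above all other libraries, but the counts were few, and the log2 value of 1.68 had an adjusted p of 0.15. TRIB3, a pseudokinase that feeds back on ATF4, was at -0.71 (adjusted p = 0.13), and SESN2, a leucine sensor that restrains mTORC1, at -0.54 (adjusted p = 0.20).

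**Figure D4:**
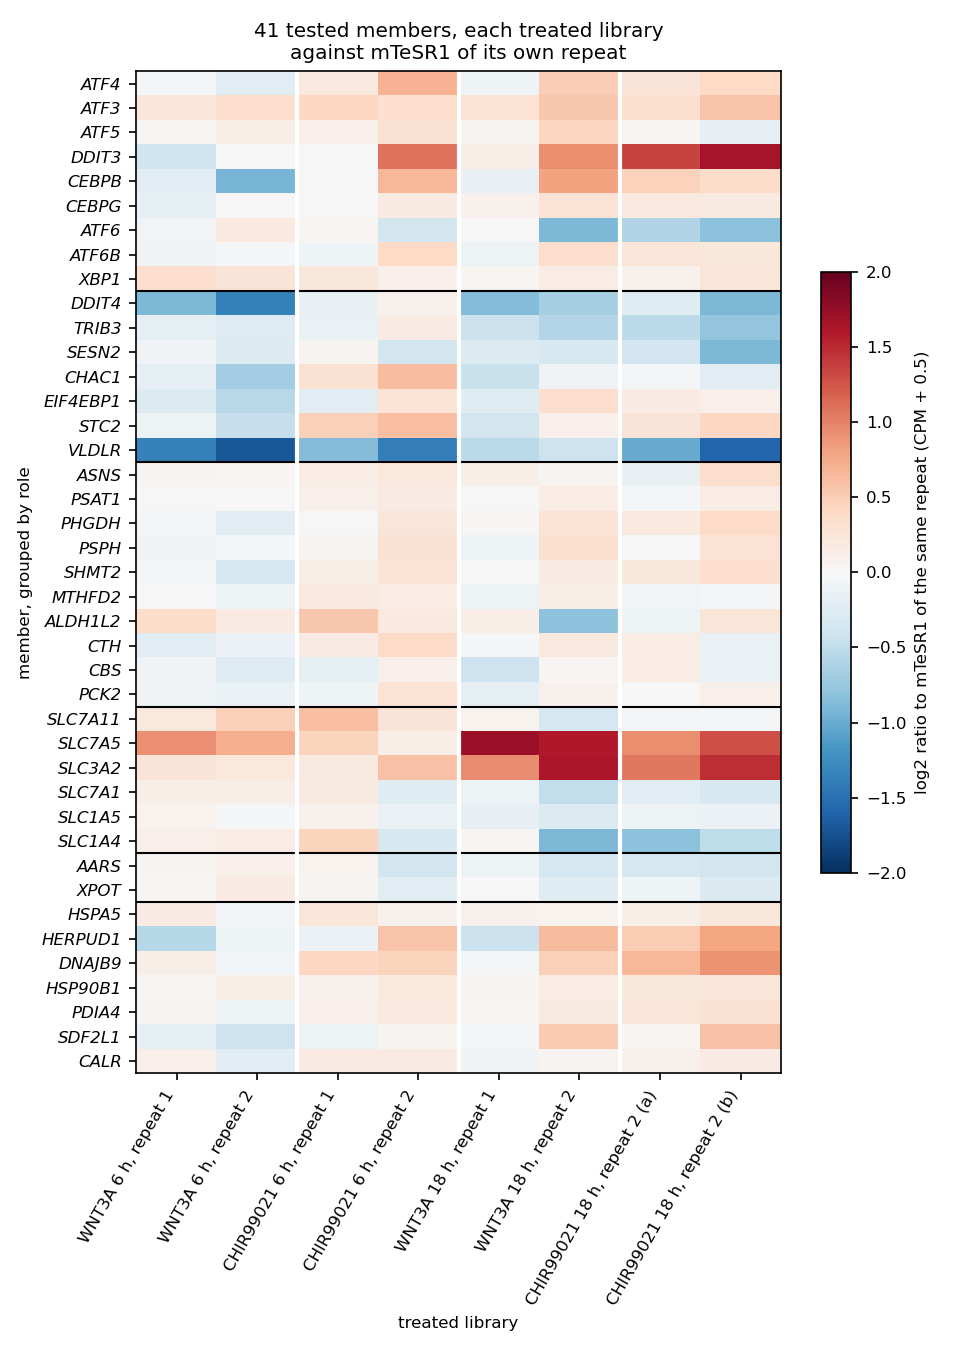
Log2 ratio of each treated library to the mTeSR1 library of its own repeat (CPM + 0.5) for the 41 tested members, ordered by role, with red for higher and blue for lower. SLC7A5 and SLC3A2 are red and DDIT4 mostly blue across treated libraries, while VLDLR is blue in all 8; the columns of a repeat share 1 mTeSR1 library.

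The members differed between the repeats as well. The sample labels name a HiSeq instrument and the design text a NovaSeq, with no assignment of libraries to either. The share of values above 0 that were whole numbers, exact to the decimals deposited, was 49.1% to 54.2% in repeat 1 and 27.6% to 35.4% in repeat 2. The part of such technical differences in the counts that follow was not tested. Of 41, 29 (70.7%) were lower in repeat 2 than in repeat 1 in mTeSR1, against 50.1% of all genes. The same held for 34 (82.9%, against 50.3%) in WNT3A 6 h, 30 (73.2%, against 50.9%) in WNT3A 18 h and 31 (75.6%, against 50.9%) in CHIR99021 6 h. PCK2, the mitochondrial form of PEP carboxykinase, was at 88.5 to 102 CPM in the 4 libraries of repeat 1 and at 45.4 to 61.2 CPM in the 6 of repeat 2. ASNS was at 121 to 135 CPM in repeat 1 and at 59.6 to 85.0 CPM in repeat 2. For both genes the repeats did not overlap, whatever the treatment. With the trend with transcript length removed, 28, 33, 30 and 31 of 41 were lower in repeat 2 in the same 4 groups, against 49.1%, 49.8%, 51.6% and 50.5% of all genes.

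ATF6B, a relative of ATF6, lies in the major histocompatibility region, which has alternative haplotype sequences in the assembly, and it had 4 Ensembl identifiers in the table. The copy ENSG00000168468 was at 0 in all libraries, and ENSG00000234539 was at 0 in both WNT3A 18 h libraries but at 81.5 to 217 estimated counts in the other 8. The sum over the 4 stayed within 24.9 to 33.9 CPM, so the sum was used and single copies were not compared.

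Other genes of the same pathways were taken from 8 lists without the members. In the list of 20 eIF2alpha kinases, phosphatase subunits and ER sensors, 1 fell after 18 h of CHIR99021 (against 1.63% of all genes called lower), EIF2AK4, which encodes the amino acid sensing kinase GCN2. It was at 148 and 234 CPM in mTeSR1, 84.9 and 94.8 CPM after 18 h of WNT3A, and 117 and 90.6 CPM in CHIR99021 (a) and (b). Neither 18 h treatment overlapped mTeSR1. The log2 change with CHIR99021 was -1.07 (SE 0.19, edgeR adjusted p = 0.027), and with WNT3A it was -1.09 (adjusted p = 0.11), or -1.05 with the repeat as a block (adjusted p = 0.015). That WNT3A fit with the block called 2.86% of all genes lower. The CHIR99021 call was lost without the block (adjusted p = 0.22), without mTeSR1 of repeat 1 (0.080) or repeat 2 (0.45) and without library (b) (0.22).

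Of 26 other ATF4 and amino acid response targets tested, 2 fell after 18 h of either treatment and none rose, where 1.06% of all genes were called lower with WNT3A and 1.63% with CHIR99021. FAM129A, also called NIBAN1, a stress-responsive regulator of translation, was at 52.2 and 66.8 CPM in mTeSR1, 20.9 and 16.5 CPM after 18 h of WNT3A, and 15.2 and 13.2 CPM after 18 h of CHIR99021. SLC7A3, a transporter of cationic amino acids, was at 150.5 and 158 CPM in mTeSR1 and at 90.1 to 103 CPM in the 4 libraries at 18 h. Their log2 changes were -1.67 and -0.59 with WNT3A (adjusted p = 0.0098 and 0.046) and -2.10 and -0.72 with CHIR99021 (0.0045 and 0.017). With WNT3A, FAM129A lost its call without mTeSR1 of repeat 2 (0.058) or either WNT3A 18 h library (0.057 and 0.098), and SLC7A3 without any of the 4 libraries compared (0.12 to 0.27), with no filter (0.072), per identifier (0.052) or with only the groups compared (0.14). With CHIR99021, both lost it without mTeSR1 of repeat 2 (0.15 and 0.29) or library (b) (0.052 and 0.16), and SLC7A3 also without mTeSR1 of repeat 1 (0.080). At 18 h, then, SLC7A3 was lower and SLC7A5 higher than in mTeSR1 with both treatments.

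Among 12 NRF2 oxidative stress genes, HMOX1, haem oxygenase, fell after 18 h of CHIR99021, where 1.63% of all genes were called lower. It was at 49.2 and 25.5 CPM in mTeSR1, 13.8 and 14.2 CPM after 18 h of WNT3A and 13.1 and 14.2 CPM after 18 h of CHIR99021, so that neither treatment overlapped mTeSR1. The log2 change was -1.15 with CHIR99021 (adjusted p = 0.042), and the call was lost without the block (0.083), per identifier (0.058) and without any of the 4 libraries compared (0.12 to 0.23). With WNT3A it was -1.42 (adjusted p = 0.071), or -1.34 with the repeat as a block (adjusted p = 0.011), where 2.86% of all genes were called lower. No gene passed without the block after WNT3A, or with it after 18 h of CHIR99021, among 19 aminoacyl-tRNA synthetases, 33 other ER chaperone and folding genes, 7 ER stress death genes, 13 heat shock genes and 14 mTORC1 regulators. With the repeat as a block, TARS fell after 18 h of WNT3A (log2 change -0.71, adjusted p = 0.042, against 0.10 without the block) and FKBP14 rose after 6 h of WNT3A (0.79, adjusted p = 0.036, against 0.072 without the block). In that fit, 2.86% of all genes were called lower after 18 h of WNT3A and 0.918% higher after 6 h. Between CHIR99021 and WNT3A, no gene of the 8 lists passed at 6 h or 18 h.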

How the data were processed

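Poly(A)-selected RNA of 10 libraries was measured by paired-end sequencing. The deposited table holds estimated counts per Ensembl gene, which the authors made with Salmon 1.8.0 against GRCh38, per the submitters' processing notes. For the transcript set and the summing to genes, nothing is given in the sources used here. Estimated counts were added per symbol and rounded to whole numbers. Groups came from the treatment labels and repeats from the titles. The genes, the related lists and the tests were chosen with earlier results of these data known. The TCF/LEF motif was added after values were seen.

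All 10 libraries entered a fit with edgeR 4.0.16 (R 4.3.3, limma 3.58.1): TMM scaling, filterByExpr (minimum count 10, minimum total 15), a robust quasi-likelihood test and Benjamini-Hochberg adjustment over 15251 genes, with calls below 0.05. The fit had the biological repeat as a block where CHIR99021 at 18 h was involved, and no block elsewhere. Deviations from group means of libraries of the same repeat correlated in each of the 6 pairs of groups (Pearson's r 0.277 to 0.691). Libraries of a repeat thus deviated together, with no correction for the length trend. Whether this came from shared cultures or from technical differences was not tested. The fits without the block leave this shared deviation out, and the counts of members called with the block are given beside theirs. Replicates differed beyond counting noise (chi-square per degree of freedom 12.5 to 105). The scripts were tested on simulated data. Levels are CPM scaled by TMM, and ratios within a repeat use CPM + 0.5. Members were named with full statistics where they passed in any comparison with or without the block. The 5 members with the lowest unadjusted p in each direction between CHIR99021 and WNT3A were also named, some with the log2 value alone. Alternatives were the other block setting, RLE and upper quartile scaling, DESeq2 1.42.0, no filter on low counts, rows per identifier, removal of the length trend, only the groups compared, and leaving out each library. Intervals are 95% and cover the fitted spread.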

Additional observations from a re-analysis of the deposited data

How the results depend on the processing

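Members past the threshold between CHIR99021 and WNT3A at 6 h, at 18 h and in the change between the times numbered 0 under each alternative run. After 6 h of WNT3A the count was 0 (of 66 genes called in all). It was 2 with the repeat as a replicate block (of 168), 1 with no filter on low counts (of 173) and 2 with DESeq2 (of 249). At 18 h of WNT3A it was 1 (of 320), and 2 with the replicate block (of 751) and with DESeq2 (of 810). After 6 h of CHIR99021 it was 0 throughout. After 18 h of CHIR99021 it was 3, but 1 with no replicate block and 1 with rows per identifier, and leaving out a library gave 0 to 3 (0 without either mTeSR1 library or without CHIR99021 library (b)). The cause was not tested, apart from the smaller number of samples when a library is left out. Among single members, the sign turned for XPOT at 6 h (0.0047 without the WNT3A library of repeat 2, down to -0.34 without that of repeat 1), ATF6 at 6 h (0.27 and -0.73 without the same libraries), SLC7A1 at 6 h (0.035 with the length trend removed), AARS at 6 h (0.082 without the CHIR99021 library of repeat 2, -0.53 without that of repeat 1) and SESN2 at 18 h (0.0020 without library (b), -0.53 without (a)). Over all genes, the 66 calls after 6 h of WNT3A became 168 with the block, 173 with no filter, 249 with DESeq2 and 2 with only the groups compared. The 320 after 18 h of WNT3A became 751 with the block and 810 with DESeq2. The 424 after 18 h of CHIR99021 became 181 without the block, 254 per identifier, 1174 with only the groups compared and 918 with DESeq2. Log2 ratios within a repeat have no test and stand in the report. Depth limits DDIT3 and NUPR1 most.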
